A study of Homo sapiens with 6 samples.

Results

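Protein arginine methyltransferases were followed in HSC-3, a human tongue squamous cell carcinoma line, on arrays labelled TAT-2 and arrays labelled vector. The 7 genes were PRMT1, PRMT2, PRMT3, CARM1, PRMT5, PRMT6 and PRMT7. They were chosen by results of the TAT-2 against vector contrast on these same arrays, and their differences are therefore given as a description with no test. Each was represented by every probe set annotated to 1 of these symbols, 16 of 54613 non-control probe sets, and 0 further probe sets named a member together with another gene. Of the 16, 13 passed the filter on low values (a mean log2(signal + 16) at or above the median of all non-control probe sets) and 3 did not, and each of the 7 genes kept at least 1 probe set.

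Per the labels, the TAT-2 cells were HSC-3 made to overexpress trypsin-2, a serine protease, and the vector cells were HSC-3 carrying the control vector, described as making no trypsin-2. There were 3 arrays per group, with replicate numbers 1, 2 and 3 in the titles. All cells grew for 48 h in DMEM and Ham's F-12 with fetal calf serum and hydrocortisone. Whether each line was 1 clone or a pool, and whether replicates were separate cultures, is not stated in the labels, so p-values measure only a spread between arrays that may be technical. The number of arrays limits the precision.

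Arginine methyltransferases move methyl groups from S-adenosylmethionine to arginines of proteins. Type I enzymes (PRMT1, PRMT2, PRMT3, CARM1 and PRMT6) finish with asymmetric dimethylarginine, type II enzymes such as PRMT5 with symmetric dimethylarginine, and the type III enzyme PRMT7 stops at monomethylarginine. Their substrates include histones, RNA-binding proteins and spliceosomal proteins, and several of the enzymes are studied as drug targets in cancer.

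Neither probe set of PRSS2, the trypsinogen gene that encodes trypsin-2, was brighter on average on the arrays labelled TAT-2. The first (205402_x_at) gave 20.4, 13.8 and 14.6 on TAT-2 arrays against 19.6, 80.8 and 83.2 on vector arrays. The other (216470_x_at) gave 19.9, 17.9 and 19.5 on TAT-2 arrays against 22.6, 38.0 and 54.5 on vector arrays. Names ending in _x_at mark probe sets that can read related sequences, and whether either one reads the introduced sequence is not settled by these files. These signals therefore do not check the labels, and every direction below rests on the labels. Of 8 squamous epithelial markers, 5 had a probe set of their own (KRT5, KRT14, SFN, CDH1 and DSG3), and all 5 were above the filter. Their summed signal ran from 18795 to 21878 on TAT-2 arrays and from 16375 to 23620 on vector arrays. Of the 5, limma with the replicate number as a block called CDH1, a neighbour of PRMT7, which read 651.5, 977.0 and 932.2 on TAT-2 arrays against 1028, 1215 and 1193 on vector arrays. The others of the 5 overlapped between the groups, with log2 differences of 0.31 (KRT5), 0.22 (KRT14), 0.01 (DSG3) and -0.02 (SFN). Above the filter were also 2 of 6 fibroblast markers, 2 of 5 leukocyte markers and 1 of 4 endothelial markers with a probe set. Summed signals overlapped between the groups in each of these lists (130.5 to 137.3 on TAT-2 and 111.5 to 135.8 on vector arrays for fibroblast markers, 54.5 to 112.7 and 55.5 to 77.5 for leukocyte markers, 41.6 to 55.8 and 41.2 to 49.4 for endothelial markers). Of the leukocyte markers, PTPRC did not exceed 8.17 on any array, while CD14 read 14.0, 79.5 and 54.4 on TAT-2 arrays against 9.15, 38.3 and 22.3 on vector arrays. CD14 overlapped between the groups but was higher on TAT-2 arrays within each replicate number. Its mean was 11.6 on replicate 1 arrays and 48.6 on the others. CD3E, below the filter, went the other way, with 10.2, 13.6 and 12.6 on TAT-2 arrays against 14.2, 16.1 and 16.3 on vector arrays. LYZ, also below the filter, was lower on TAT-2 arrays within each replicate number (-0.64, -0.07 and -0.45). CSF1R overlapped, at -0.01. With the block limma called none of the fibroblast, leukocyte or endothelial markers. The part of CD14 or CDH1 in the results below was not tested. No marker of these lists was listed at exactly 0.

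The 250 bases before the annotated start of PRMT6 and of PRMT5 are shown (RefSeq, GRCh38.p14). Among the members PRMT6 had the highest difference, and PRMT5, whose 3 probe sets were all lower, had the lowest. The PRMT6 window is chr1:107056424-107056673 on the plus strand and the PRMT5 window is chr14:22929377-22929626 on the minus strand, each printed 5′ to 3′. Capitals mark matches on either strand to the GC box GGGCGG, to CCAAT, to the TATA box as TATAAA or to the E-box CACGTG. They also mark TGANNNNGC, a looser pattern than the core of the antioxidant response element.
PRMT6: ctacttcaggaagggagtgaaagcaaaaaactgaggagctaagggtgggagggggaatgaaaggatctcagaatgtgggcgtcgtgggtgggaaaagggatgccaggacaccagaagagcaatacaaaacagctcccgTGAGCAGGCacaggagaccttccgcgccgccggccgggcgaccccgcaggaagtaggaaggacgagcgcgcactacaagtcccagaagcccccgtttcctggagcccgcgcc
PRMT5: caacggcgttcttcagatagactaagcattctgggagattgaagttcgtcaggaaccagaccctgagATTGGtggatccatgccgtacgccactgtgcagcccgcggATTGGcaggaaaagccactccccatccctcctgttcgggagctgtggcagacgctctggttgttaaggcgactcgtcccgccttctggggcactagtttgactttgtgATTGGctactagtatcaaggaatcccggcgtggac

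The PRMT6 window held 1 match to TGANNNNGC, which begins 112 bases before the start, and none to the other motifs. The PRMT5 window held 3 matches to CCAAT, all read on the opposite strand as ATTGG, and none to the others. Of 35116 promoters of the same length, 35.2% held TGANNNNGC, 32.0% CCAAT, 42.6% the GC box, 10.7% the TATA box and 6.34% the E-box. CpG dinucleotides numbered 16 in the PRMT6 window and 14 in the PRMT5 window, against a median of 11 over all promoters. A match is only a match of letters.

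PRMT6 was the member that differed most between the labels. PRMT6 is a nuclear type I enzyme that methylates histone H3 and is known mainly as a repressor of transcription. Its only probe set (223275_at) gave 65.9, 48.1 and 55.8 on the TAT-2 arrays of replicates 1, 2 and 3, against 12.9, 12.9 and 14.8 on the vector arrays. Every TAT-2 array was above every vector array, and the vector arrays were close together.

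The group means of PRMT6 were 56.6 ± 8.95 on TAT-2 arrays and 13.5 ± 1.13 on vector arrays (SD, n = 3 each), a ratio of mean signals of 4.18. On the scale of log2(signal + 16), which damps the change of dim probe sets, the difference was 1.29 ± 0.16 (SE), 2.45-fold higher on that scale. By replicate number it was 1.50, 1.15 and 1.22. All 3 vector signals lay below the filter level, a signal of 15.2, so the size depends on the constant added before the logarithm: the difference was 1.98 with 1 added and 0.63 with 64 added. PRMT6 passed the filter through its TAT-2 arrays, on which it is high.

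**Figure D1:**
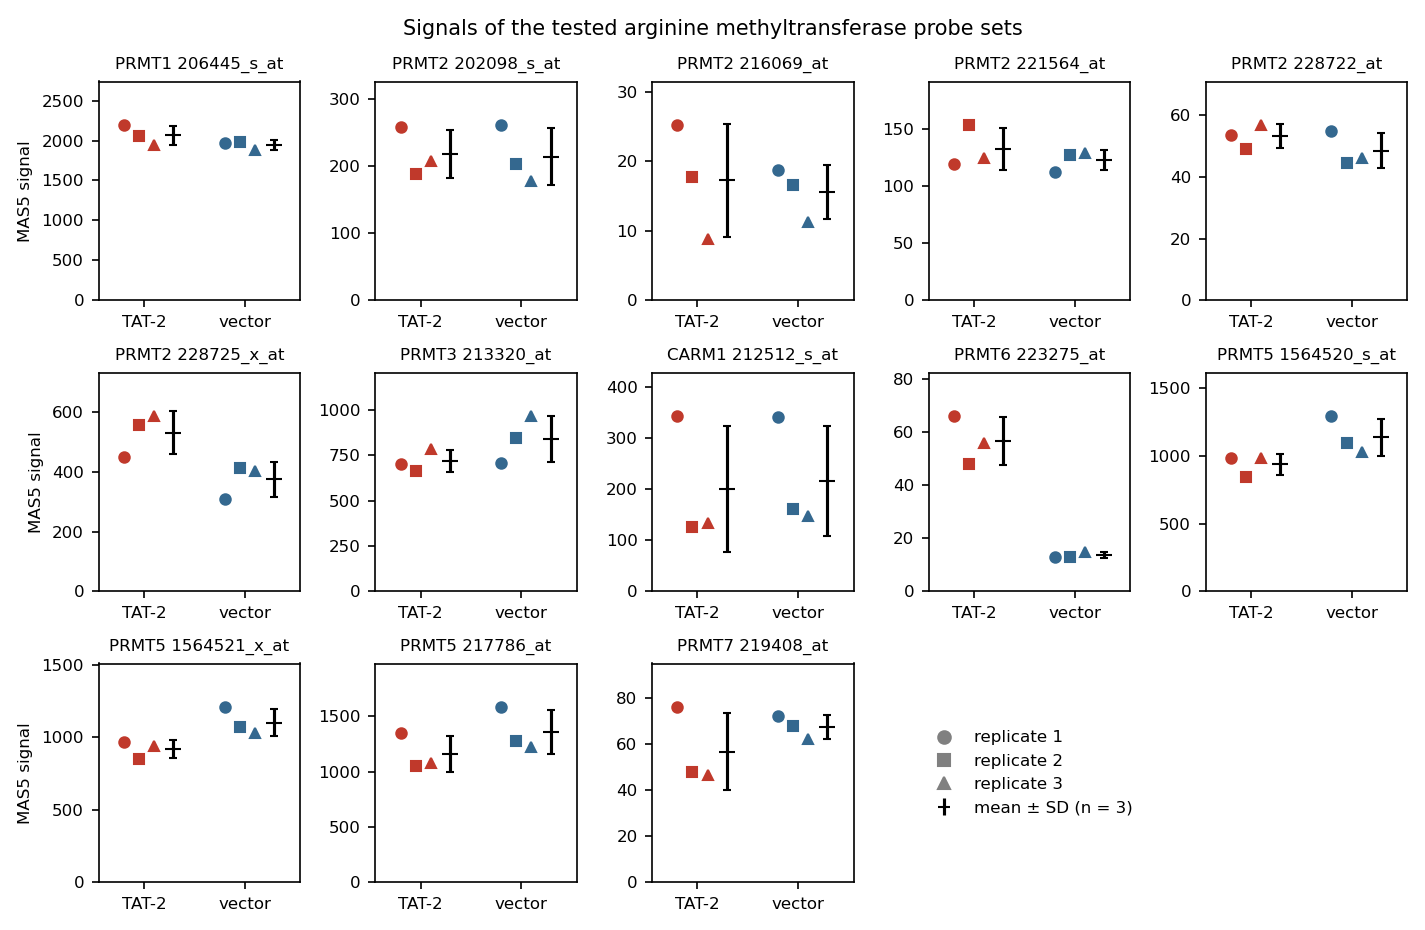
MAS5 signal (linear axis from 0, own scale per panel) of the 13 tested probe sets on the arrays labelled TAT-2 (red, left) and vector (blue, right), with a marker shape per replicate number and the mean ± SD (n = 3). PRMT6 sits between 48.1 and 65.9 on TAT-2 arrays, above the 12.9 to 14.8 of the vector arrays, while CARM1 is high on both replicate 1 arrays.

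PRMT1, the enzyme credited with most asymmetric arginine methylation in mammalian cells, had overlapping groups. Its bright probe set (206445_s_at) read 2190, 2058 and 1949 on TAT-2 arrays against 1974, 1986 and 1875 on vector arrays. The log2 difference was 0.09 ± 0.08 (SE). Its other probe set (1565016_at) did not pass the filter, with 7.60 to 8.11 on TAT-2 arrays and 1.43 to 12.9 on vector arrays.

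PRMT2 carries an SH3 domain and acts as a coactivator of nuclear receptors, with weak enzymatic activity of its own. It had 7 probe sets, of which 5 were tested, and these did not behave alike. One of them, 228725_x_at, gave 450.6, 556.7 and 585.4 on TAT-2 arrays against 308.4, 414.0 and 403.4 on vector arrays. Every TAT-2 signal was above every vector signal, with a log2 difference of 0.49 ± 0.15 (SE) and values of 0.52, 0.41 and 0.52 by replicate number.

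The other 4 tested PRMT2 probe sets overlapped between the groups. The probe set 202098_s_at read 257.8, 188.0 and 207.6 on TAT-2 arrays and 260.5, 203.5 and 178.2 on vector arrays. Log2 differences over the 4 ran from 0.03 to 0.10. The 2 dimmer PRMT2 probe sets, below the filter, lay at 5.47 to 13.4 (210384_at) and 11.1 to 15.9 (216072_at) on TAT-2 arrays, and at 1.67 to 10.5 and 14.2 to 14.9 on vector arrays. The name of 228725_x_at is of the kind that can read related sequences, and the platform annotation gives it no source accession, so which transcript its signal stands for was not settled by these files.

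PRMT3, a cytosolic type I enzyme that methylates the ribosomal protein RPS2, was somewhat dimmer on most TAT-2 arrays. Its probe set (213320_at) read 702.3, 663.2 and 782.1 on TAT-2 arrays and 707.7, 845.7 and 963.6 on vector arrays. Groups overlapped, and the log2 difference was -0.22 ± 0.13 (SE). Within replicate numbers it was -0.01, -0.34 and -0.30, so the replicate 1 arrays were almost level. It was -0.33 without vector replicate 1 and -0.11 without vector replicate 3.

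CARM1, a coactivator that methylates histone H3 and the chromatin remodelling subunit SMARCC1, separated the arrays by replicate number and not by label. Its probe set (212512_s_at) gave 343.1, 125.8 and 134.5 on TAT-2 arrays and 341.0, 160.8 and 147.7 on vector arrays. Both replicate 1 arrays were far above the other 4, by a log2 difference of 1.18, and 0.370% of tested probe sets had a replicate 1 difference at least as high. The log2 difference between labels was -0.14 ± 0.40 (SE), with 0.01, -0.32 and -0.12 by replicate number, and it ran from -0.58 without TAT-2 replicate 1 to 0.21 without vector replicate 1. On these replicate 1 arrays one control for 28S ribosomal RNA (AFFX-M27830_M_at) read 682.5 on TAT-2 and 529.5 on vector, while the others read 2030 to 2061 on TAT-2 and 2300 to 2537 on vector. For ACTB, log2 of its 3′ signal over its 5′ signal, a measure of RNA integrity and labelling, was 0.21 on TAT-2 and 0.25 on vector there, and 0.46 to 0.57 on the other TAT-2 and 0.50 to 0.59 on the other vector arrays. The same measure for GAPDH did not follow ACTB. It was 0.03 on TAT-2 and 0.09 on vector in replicate 1. The other TAT-2 arrays were at -0.005 and -0.004, and the other vector arrays at 0.006 and 0.021. The part of these measures in the CARM1 signal was not tested.

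PRMT5, the main symmetric dimethyltransferase, which modifies Sm proteins of the spliceosome in a complex with WDR77, was lower by a small amount on all its probe sets. The probe set 217786_at read 1345, 1051 and 1080 on TAT-2 arrays and 1580, 1272 and 1218 on vector arrays. The probe set 1564520_s_at read 986.7, 847.3 and 984.4 on TAT-2 arrays and 1294, 1097 and 1029 on vector arrays. The probe set 1564521_x_at read 965.9, 851.0 and 942.9 on TAT-2 arrays and 1207, 1070 and 1027 on vector arrays. In the last pair every TAT-2 signal was below every vector signal, whereas 217786_at overlapped through its replicate 1 TAT-2 array.

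Mean signals of PRMT5 were 14.6%, 17.6% and 16.5% lower on the TAT-2 arrays for these 3 probe sets. The log2 differences were -0.22 ± 0.13, -0.27 ± 0.12 and -0.25 ± 0.10 (SE). In absolute size they lay at percentiles 73.9, 81.4 and 78.9 of all tested probe sets, beside 72.4 for PRMT3 and 72.7 for PRMT7. Each PRMT5 difference was negative in all 3 replicate numbers, from -0.06 to -0.39. Without vector replicate 1 the differences were -0.11 (217786_at), -0.18 (1564520_s_at) and -0.19 (1564521_x_at). The 3 probe sets are annotated to the same gene and are not independent, and the name of 1564521_x_at is of the kind that can read related sequences. A probe set of the overlapping antisense gene PRMT5-AS1 (1556899_at) averaged 22.9 ± 8.14 on TAT-2 arrays and 24.2 ± 5.85 on vector arrays (SD, n = 3 each).

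PRMT7, the monomethylating enzyme, read 76.0, 47.8 and 46.6 on TAT-2 arrays and 72.3, 67.9 and 62.2 on vector arrays (219408_at). The replicate 1 TAT-2 array was the highest of the 6 and the other TAT-2 arrays were the lowest. Its log2 difference was -0.22 ± 0.18 (SE), with 0.06, -0.39 and -0.32 by replicate number. It was -0.40 without TAT-2 replicate 1, -0.13 without TAT-2 replicate 2 and -0.12 without TAT-2 replicate 3. PRMT3, CARM1 and PRMT7 thus shared a pattern of lower TAT-2 signals in replicates 2 and 3 and differences between -0.01 and 0.06 in replicate 1. Whether replicate 1 differs from the others in this was not tested. In RNA from whole cultures, fewer cells that express a gene and less of its RNA per cell cannot be told apart.

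**Figure D2:**
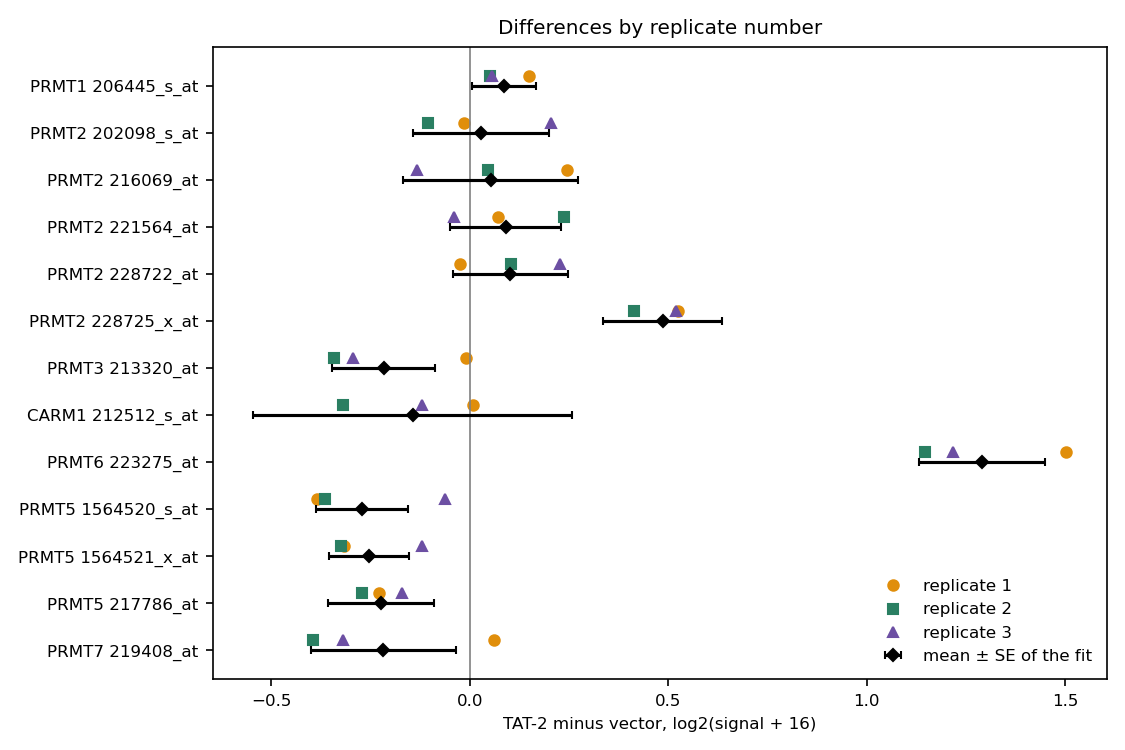
TAT-2 minus vector difference of log2(signal + 16) for each tested probe set, within replicates 1, 2 and 3 (coloured markers) and as the mean ± SE of the fit without a replicate term (black). PRMT6 lies at 1.29 and 228725_x_at of PRMT2 at 0.49, while the 3 PRMT5 probe sets lie between -0.22 and -0.27.

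Set against the whole array, the members spread to both sides. Of the 13 tested probe sets 7 had a positive and 6 a negative difference, with a median of 0.03, against a median of -0.01 over all 27307. The median absolute difference was 0.22 for the members and 0.13 for all. Groups did not overlap in 2 probe sets upward (6.73% of all tested did so) and in 2 downward (7.35% of all tested). Both downward ones are annotated to PRMT5 and are not independent. The sign was the same in all 3 replicate numbers for 7 of 13, against 39.1% of all tested, and the 7 include the 3 PRMT5 probe sets. The genes were chosen by this contrast, so these shares and medians only describe them.

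With limma and no replicate term, 0 of the 13 passed an adjusted p of 0.05, as 0.0293% of all tested probe sets did, and 4 of 13 had an unadjusted p under 0.05, against 7.86% of all. With the replicate number as a block 2 of the 13 passed, PRMT6 and 228725_x_at of PRMT2, where 5.21% of all tested did. The calls with the block rested on the modelled trend of variance with intensity: without that trend 0 of the 13 passed with the block and 0 of all tested probe sets did. The rule behind the choice of genes used this contrast, so nothing is read from these counts.

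**Figure D3:**
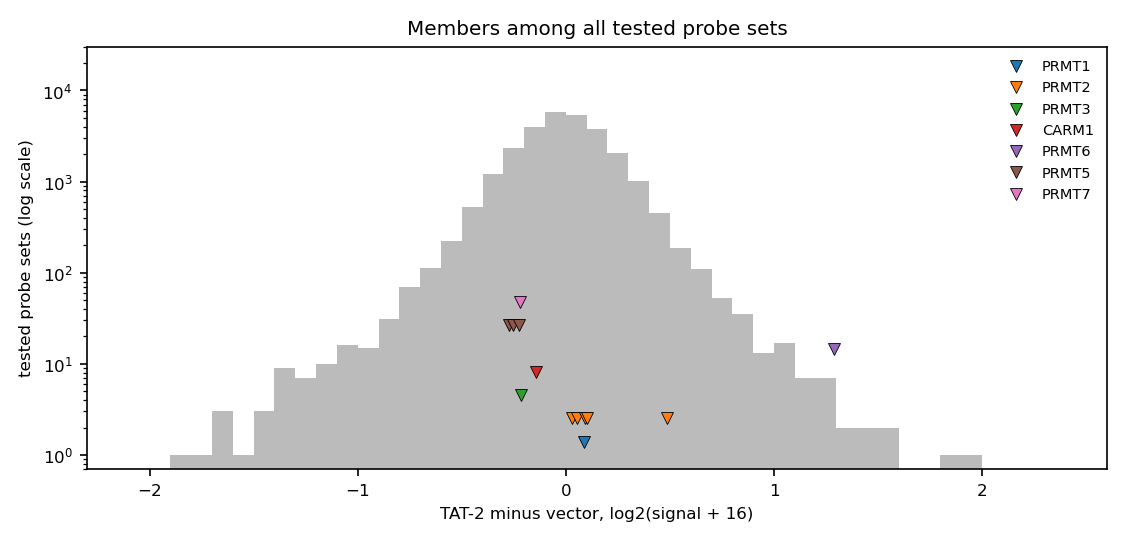
Histogram of the TAT-2 minus vector difference, log2(signal + 16), over the 27307 tested probe sets (grey, log count axis, bins of 0.1), with the members as triangles at their own difference and at arbitrary heights. PRMT6 at 1.29 is in the upper tail and the other members lie between -0.27 and 0.49.

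The genes whose signals over the 6 arrays followed PRMT6 most closely were sought among 7106 genes, each by its brightest tested probe set. The Pearson correlation with PRMT6 was 0.997 for TMEM258, 0.994 for DMKN, 0.992 for GJB5, 0.990 for CDC45 and 0.985 for MLLT11. TMEM258, a subunit of the oligosaccharyltransferase complex, averaged 2094 ± 45.9 on TAT-2 arrays and 1607 ± 28.2 on vector arrays (SD, n = 3 each). CDC45, a factor of the replicative helicase, averaged 585.9 ± 34.8 on TAT-2 arrays and 396.8 ± 14.0 on vector arrays. These are the highest of many correlations over 6 arrays that fall into the same pair of groups, so they only describe the pattern.

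No neighbouring gene differed by as much as PRMT6, which was chosen by this contrast. Of all tested probe sets 9, PRMT6 included, had a difference at or above its own, so nothing is read from this. The 3 nearest tested genes on each side of each member numbered 39 in all, since PRMT2 had tested neighbours on 1 side only. Around PRMT6 on chromosome 1 they were COL11A1, RNPC3, LINC01676, VAV3, SLC25A24 and NBPF4, with log2 differences from -0.46 to 0.21. Around PRMT5 on chromosome 14 the 6 neighbours ran from -0.23 to -0.02, with SE from 0.08 to 0.21. All were negative on average, where the median over all tested probe sets was -0.01. PRMT5-AS1 and AJUBA were positive in replicate 3 and PSMB5 in replicate 1, and neither fit called any of these neighbours. Limma without the block called 0 of the 39 (0.0293% of all tested), the lowest adjusted p among them being 0.527, and 1 had an unadjusted p under 0.05. With the block it called 1 (5.21% of all tested), CDH1, which encodes E-cadherin and lies beyond ZFP90 and CDH3 from PRMT7 on chromosome 16, at -0.44 ± 0.08 (SE with the block, adjusted p = 0.00826 in limma). CDH1 was not called with the block and no filter (adjusted p = 0.0657), with the block and no intensity trend (0.202) or with the block and no replicate 1 arrays (0.0509), and without TAT-2 replicate 1 its difference was -0.26.

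Genes that work with these enzymes were taken from 6 lists of 65 genes in all that share no gene with the members. The lists were chosen with earlier results of these data known, so the counts and p-values below only describe the listed genes. Of these 54 were tested, 4 lay below the filter and 7 had no probe set of a single symbol. Limma called 0 of the 54 without the block, and 5 had an unadjusted p under 0.05, which is 9.26% of the 54 beside 7.86% of all tested probe sets. With the block it called 4, which is 7.41% of the 54 beside 5.21% of all tested probe sets, 3 of them higher (2.55% of all tested) and 1 lower (2.66% of all tested). All 4 calls were lost with the block and no filter on low values (adjusted p in limma of 0.0651 for MTAP, 0.102 for SNRPB, 0.116 for SMNDC1 and 0.135 for SNRPD3), and with the block and no intensity trend (0.184 for MTAP and up to 0.274 for SMNDC1). With the block and each gene's probe sets averaged 4 were again called, 3 of them the same genes, with SNRPD1 in place of MTAP. The median log2 difference of the 54 was 0.01, against -0.01 over all tested.

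Of 8 listed cofactors and inhibitors of the enzymes 6 were tested, and limma passed 0 in either fit (unadjusted p under 0.05 for 0 of them without the block). Partners of PRMT5 were at 0.14 ± 0.11 (WDR77), 0.05 ± 0.11 (CLNS1A, which presents Sm proteins), 0.04 ± 0.12 (RIOK1) and -0.03 ± 0.12 (COPRS), as log2 differences with SE. WDR77, the obligate partner, read 781.5, 660.3 and 663.8 on TAT-2 arrays and 680.4, 651.2 and 576.5 on vector arrays on its brighter probe set. Its other probe set (201421_s_at) had the opposite sign, at -0.20 ± 0.10, with 419.4, 433.9 and 415.2 on TAT-2 arrays, all below the 482.2, 514.4 and 468.2 of the vector arrays. TOB1, of the BTG family, was at -0.07 ± 0.10 on its brighter probe set and at 0.01 ± 0.13 on its other one (228834_at).

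Among 6 genes of methyl donor supply, all tested, MTAP was the only one called by limma with the block. Without the block none was called and 1 had an unadjusted p under 0.05. MTAP clears methylthioadenosine, a metabolite that inhibits PRMT5. On its brightest probe set (231984_at) it read 227.8, 317.3 and 261.5 on TAT-2 arrays and 167.8, 201.1 and 203.5 on vector arrays. No array of 1 group reached into the other. The log2 difference was 0.45 ± 0.09 (SE with the block, adjusted p = 0.0132 in limma, and 0.463 without the block). Its other 4 tested probe sets ran from -0.13 to 0.07, and averaged over its probe sets MTAP was not called with the block (0.10 ± 0.08, adjusted p = 0.584). MAT2A, which makes S-adenosylmethionine, was at -0.10 ± 0.09 and AHCY, which removes its spent form, at 0.01 ± 0.14.

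Of 6 tested Tudor domain proteins, which bind methylated arginine or lysine, limma called SMNDC1 with the block. It called none without the block, where 0 had an unadjusted p under 0.05. SMNDC1, a splicing factor, read 910.2, 1055 and 1086 on TAT-2 arrays and 730.8, 887.0 and 927.0 on vector arrays. Its groups overlapped, and its difference was 0.31, 0.25 and 0.22 by replicate number (0.26 ± 0.06, SE with the block, adjusted p = 0.0386 in limma, and 0.662 without it). Without the replicate 1 arrays it was not called with the block (adjusted p = 0.179), and without vector replicate 1 alone its difference was 0.16.

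Of 32 listed substrates 26 were tested. Limma called 1 higher and 1 lower in the blocked fit and 0 in the fit with no block, where 3 had an unadjusted p under 0.05. Both called genes encode Sm proteins of the spliceosome, which PRMT5 is known to methylate, SNRPD3 higher and SNRPB lower. SNRPD3 read 4280, 4594 and 4869 on TAT-2 arrays and 3677, 3764 and 3804 on vector arrays, without overlap. Its log2 difference was 0.29 ± 0.07 (SE with the block, adjusted p = 0.0289 in limma, and 0.297 without it), and without the replicate 1 arrays it was not called with the block (adjusted p = 0.0865). SNRPB read 3070, 2269 and 2513 on TAT-2 arrays and 3658, 3151 and 3052 on vector arrays, with overlap through the replicate 1 TAT-2 array. Its log2 difference was -0.33 ± 0.07 (SE with the block, adjusted p = 0.0174 in limma, and 0.544 without it), and its dimmer probe set (208821_at) was at -0.43. Another Sm gene of the list, SNRPD1, was not called on its brighter probe set (202690_s_at), at -0.26 ± 0.08 (SE with the block, adjusted p = 0.106 in limma, and 0.584 without it). Its dimmer probe set (202691_at) was lower, at -0.42 ± 0.08 (SE with the block, adjusted p = 0.0118 in limma, and 0.359 without it), with 285.1, 298.8 and 305.2 on TAT-2 arrays, all below the 351.1, 441.4 and 413.9 of the vector arrays. The median of the tested substrates was -0.02.

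Enzymes that break down methylarginine or convert arginine to citrulline were tested for 6 of 8 genes, and limma called 0 in either fit (unadjusted p under 0.05 for 0 of them without the block). PADI1, a peptidylarginine deiminase of skin, was at 0.40 ± 0.23 and DDAH2, a dimethylarginine hydrolase, at 0.28 ± 0.18 (log2, SE). The 3 tested DDAH2 probe sets were all positive, from 0.26 to 0.30, and are not independent. Among them 202262_x_at and 215537_x_at have names of the kind that can read related sequences. The other arginine methyltransferases on the list, all 4 tested, were positive in all 3 replicate numbers on their brightest probe set. Of all tested probe sets 39.1% kept the same sign in all 3, counting both directions, so the share positive in all 3 is smaller. Limma called none of the 4 in either fit (unadjusted p under 0.05 for 1 of them without the block). METTL23 was at 0.21 ± 0.09, PRMT9 and NDUFAF7, the mitochondrial enzyme, at 0.15 each with SE of 0.16 and 0.12, and PRMT8, a brain enzyme near the filter level here, at 0.07 ± 0.16. Of the other tested NDUFAF7 probe sets 1 had the opposite sign (220943_s_at, at -0.38 ± 0.27).

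**Figure D4:**
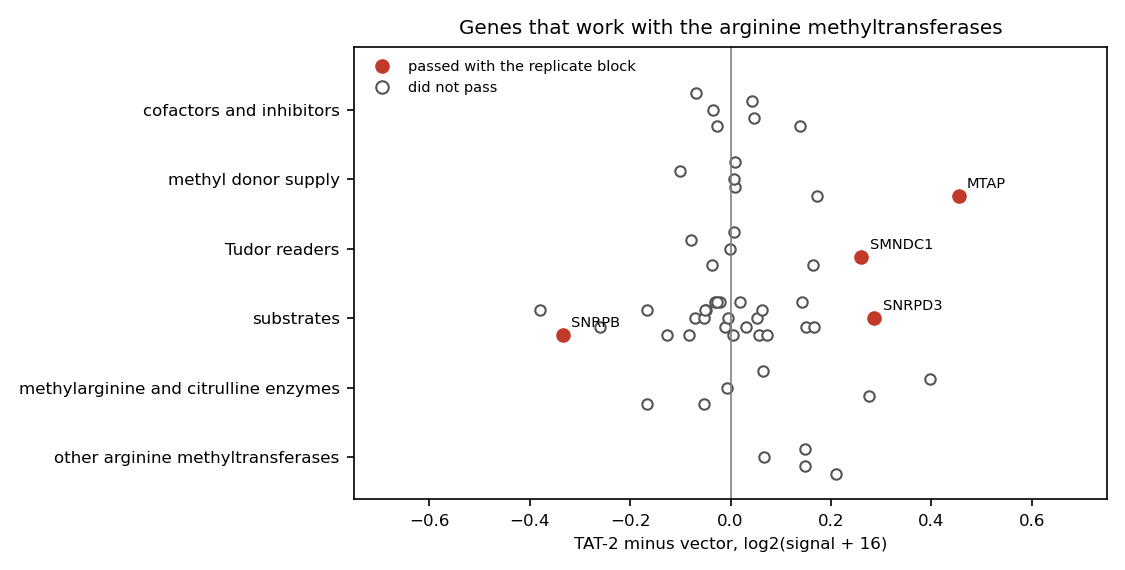
TAT-2 minus vector difference of log2(signal + 16) for the 54 tested genes of the 6 lists, each by its brightest probe set. Filled points passed an adjusted p of 0.05 in limma with the replicate block (MTAP at 0.45, SNRPD3 at 0.29, SMNDC1 at 0.26 and SNRPB at -0.33) and open points did not. None of the 4 passed with the block and no filter on low values.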

How the data were processed

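RNA of 3 TAT-2 and 3 vector samples was measured on Affymetrix arrays. Deposited for each array were MAS5 intensities on a linear scale, as the submitters' processing notes name the tool without its version, and presence calls were not used here. Array medians ran from 14.7 to 17.5, and the authors' scaling was kept. Symbols came from the platform annotation: 41097 probe sets had 1 symbol, 1801 several (which name no gene here) and 11777 none. Of the first, 41043 were matched by gene identifier to a GRCh38.p14 gene table, and 54 kept the name given.

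From the signals, log2(signal + 16) was tested with limma 3.58.1 in R 4.3.3 (lmFit, eBayes with an intensity trend, group as the only term) on 27307 probe sets with a mean at or above the median, 4.96, of 54613. P-values were adjusted by Benjamini-Hochberg over all of these at 0.05, with no fold minimum. The fit without the block was tested on simulated data that held no replicate effect. The fit with the block was not tested in this way. A gene outside the family was read by its brightest tested probe set.

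After group means were removed, arrays that share a number had correlations of 0.64, 0.39 and 0.25, each above 0.1, so the replicate numbers were taken as pairs and the replicate block is printed where it changes a call. What a number means is not in the labels. TAT-2 replicate 2 also correlated with vector replicate 3 at 0.32, and TAT-2 replicate 3 with vector replicate 2 at 0.2. The 0.1 limit therefore does not tell the pairs of replicates 2 and 3 apart.

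Members and lists were chosen with earlier results of these data known. Named genes are all members, up to 4 called genes of each list (or the 2 of smallest p), called neighbours, the 5 genes most like PRMT6 (of those with an SD over the arrays of at least 0.25 times its own) and PRSS2. Others (the further partners of PRMT5, MAT2A, AHCY, PRMT8, PRMT9, PRMT5-AS1, SNRPD1, the squamous epithelial and leukocyte markers and the neighbours of PRMT6) were named for their role or place after their values were seen. Alternatives were other pseudocounts, filters, normalizations and variance models, a replicate 1 term, the replicate block, an average over a gene's probe sets, and arrays left out.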

Additional observations from a re-analysis of the deposited data

How the results depend on the processing

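Limma called 8 probe sets in all, 13 with quantile normalization, 24 with array medians centred, 5 with no intensity trend, 1424 with the replicate block and 1232 with a replicate 1 term. Combinations with the block, chosen after seeing the data, gave 415 with no filter, 0 with no intensity trend and 795 without replicate 1 of both groups. Leaving out arrays gave 0 to 296, with 0 without TAT-2 or vector replicate 2 or 3, 29 without TAT-2 replicate 1 and 296 without replicate 1 of both groups. Of the tested members limma called 0, but 1 (PRMT6) with quantile normalization or centred medians, and 2 (PRMT6 and 228725_x_at of PRMT2) with the block, the replicate 1 term, the block with no filter, and without replicate 1 of both groups with or without the block. Other omissions gave 0. The members were chosen by results of this contrast, so nothing is read from their calls in any setting. Of the genes on the lists limma called 0, but 4 with the block or the replicate 1 term (MTAP, SMNDC1, SNRPB and SNRPD3, 3 higher and 1 lower in each), 4 with the block and an average over a gene's probe sets (3 of the same genes, with SNRPD1 in place of MTAP, 2 higher and 2 lower), 2 with the block without replicate 1 (MTAP and SNRPB), and 0 with the block and no filter or no trend. The median member difference was -0.18 with the filter at percentile 70, which leaves 10 members, -0.043 with the block without replicate 1, and -0.12 to 0.10 when arrays were left out. PRMT6 stayed between 0.63 and 1.98 over 20 settings, and it could not be read at percentile 70, where it is filtered out. The differences of CARM1 and of 3 PRMT2 probe sets (202098_s_at, 216069_at and 221564_at) changed sign when some arrays were left out, and TOB1 was at 0.0065 without replicate 1 of both groups (with or without the block) and at -0.14 without replicate 3. Apart from what is named, the cause of these changes was not tested. Without presence calls, whether the vector arrays detect PRMT6 is unknown.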
